A study of Mus musculus with 11 samples.

Results

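The 10 genes described here encode the exon junction complex and the accessory and release factors that act with it in nonsense-mediated mRNA decay (NMD). They are a list of named genes and make up 10 of the 53801 genes counted in the series. *Eif4a3*, *Rbm8a*, *Magoh*, *Magohb*, *Casc3* and *Rnps1* encode the exon junction complex (EJC) and its splicing-linked partner, *Dhx34* and *Nbas* encode accessory decay factors, and *Gspt1* and *Etf1* encode the release factors eRF3a and eRF1. All 10 passed the filter on low counts in each of the comparisons.

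Total RNA depleted of ribosomal RNA was sequenced from 11 cultures of neural progenitor cells (NPCs) taken from E13.5 mouse brains, on a mixed C57BL/6 and 129SV background. All 11 cultures carried *Smg6* Flox/Flox. The 3 Ctr cultures (embryos SMH_128, SMH_132 and SMH_133) carried RosaCreER tg/+ and received no 4-OHT, the tamoxifen metabolite that activates the CreER recombinase. The 4 Ctr + 4-OHT cultures (embryos SMH_125, SMH_126, SMH_129 and SMH_131) were RosaCreER +/+, that is without the recombinase, and received 4-OHT at 1 µM. The 4 *Smg6*-iKO cultures (embryos SMH_127, SMH_128, SMH_132 and SMH_133) carried RosaCreER tg/+ and received the same dose. The labels give 3 days with 4-OHT, and the RNA was taken 6 days after the start of treatment. CreER is driven from the Rosa26 locus and so is not limited to one cell type of the culture. The Ctr and *Smg6*-iKO groups thus differ in 4-OHT as well as in *Smg6*, and the Ctr + 4-OHT and *Smg6*-iKO groups in Cre as well as in *Smg6*. Embryos SMH_128, SMH_132 and SMH_133 gave one Ctr and one *Smg6*-iKO culture each.

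The EJC is deposited upstream of exon-exon junctions during splicing and is removed by the first translating ribosome. A ribosome that stops at a premature codon leaves an EJC downstream, where the UPF proteins bind it, and the release factors at the stop codon bind UPF1. SMG6 is the endonuclease that then cuts the mRNA near the stop codon, and loss of EJC subunits in mouse neural progenitors is known to cause microcephaly.

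The genes of a library held 26418249 to 33756875 counted reads in all, and the libraries of a group correlated with each other at a Spearman coefficient of at least 0.987. Counts were expressed as CPM, the usual count unit relative to the library total, here scaled with TMM factors, and groups were compared with edgeR's quasi-likelihood test with Benjamini-Hochberg adjustment over all genes tested. Genes with an adjusted p below 0.05 were called. *Smg6* itself was counted at 69.4, 79.3 and 74.2 CPM in Ctr, at 66.4, 71.9, 72.2 and 66.5 CPM in Ctr + 4-OHT and at 62.5, 62.2, 71.8 and 67.4 CPM in *Smg6*-iKO. Relative to Ctr + 4-OHT the log2 fold change was -0.06, and relative to Ctr it was -0.17, and neither passed the test (adjusted p = 0.703 and 0.148), whereas a fit with a term for each embryo (the blocked fit) gave -0.15 against Ctr, which passed (adjusted p = 0.043) but not without embryo SMH_132 or SMH_133. Counts per gene do not separate the floxed exons from the rest, so these totals do not check the deletion. Of the 10 progenitor markers, all were detected, and their summed level was 5450 to 6310 CPM in *Smg6*-iKO, 5730 to 7070 CPM in Ctr + 4-OHT and 6410 to 6930 CPM in Ctr. The erythroid markers summed to at most 0.128 CPM in any library and the microglial markers to at most 3.79 CPM.

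None of the 10 genes was a differentially expressed gene (DEG) in the edgeR test described above. *Gspt1* passed in *Smg6*-iKO against Ctr in the blocked fit (adjusted p = 0.00472), where 3854 of 17974 genes were called. Against Ctr it also passed in edgeR with a correction for gene length (adjusted p = 0.0296), where 1955 of 17974 were. DESeq2 called it in both comparisons of *Smg6*-iKO (adjusted p = 0.0317 and 0.0225), beside 6.06% and 16.9% of the genes it gave an adjusted p. In *Smg6*-iKO against Ctr + 4-OHT 0 of 10 were called, where 1.17% of all genes tested were. In *Smg6*-iKO against Ctr 0 of 10 were called, where 9.25% of all genes were, and in Ctr + 4-OHT against Ctr 0 of 10, where 0.221% were. The numbers of all genes behind these shares, 206, 1663 and 39, depended on single libraries. They ran from 66 to 174, from 570 to 2524 and from 5 to 54 with 1 library left out. The number called among the 10 genes was 0 in each of these fits too, which at such shares does not set them apart from all genes. At an unadjusted p under 0.05, 4 of the 10 passed against Ctr + 4-OHT, with a background of 16.7%. These were *Gspt1*, *Etf1*, *Magoh* and *Eif4a3*, and all were lower in *Smg6*-iKO. Against Ctr 2 of the 10 passed unadjusted, *Gspt1* and *Magoh*, with a background of 26.9%. The median log2 fold change of the 10 genes was -0.10 against Ctr + 4-OHT and -0.08 against Ctr, beside 0.01 and 0.01 over all genes tested. In all 3 comparisons the 95% interval of the difference lay within a 1.5-fold change in either direction, and the bounds farthest from 0 were -26.6% for *Magohb* in *Smg6*-iKO against Ctr and 20.5% for *Eif4a3* in Ctr + 4-OHT against Ctr.

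**Figure D1:**
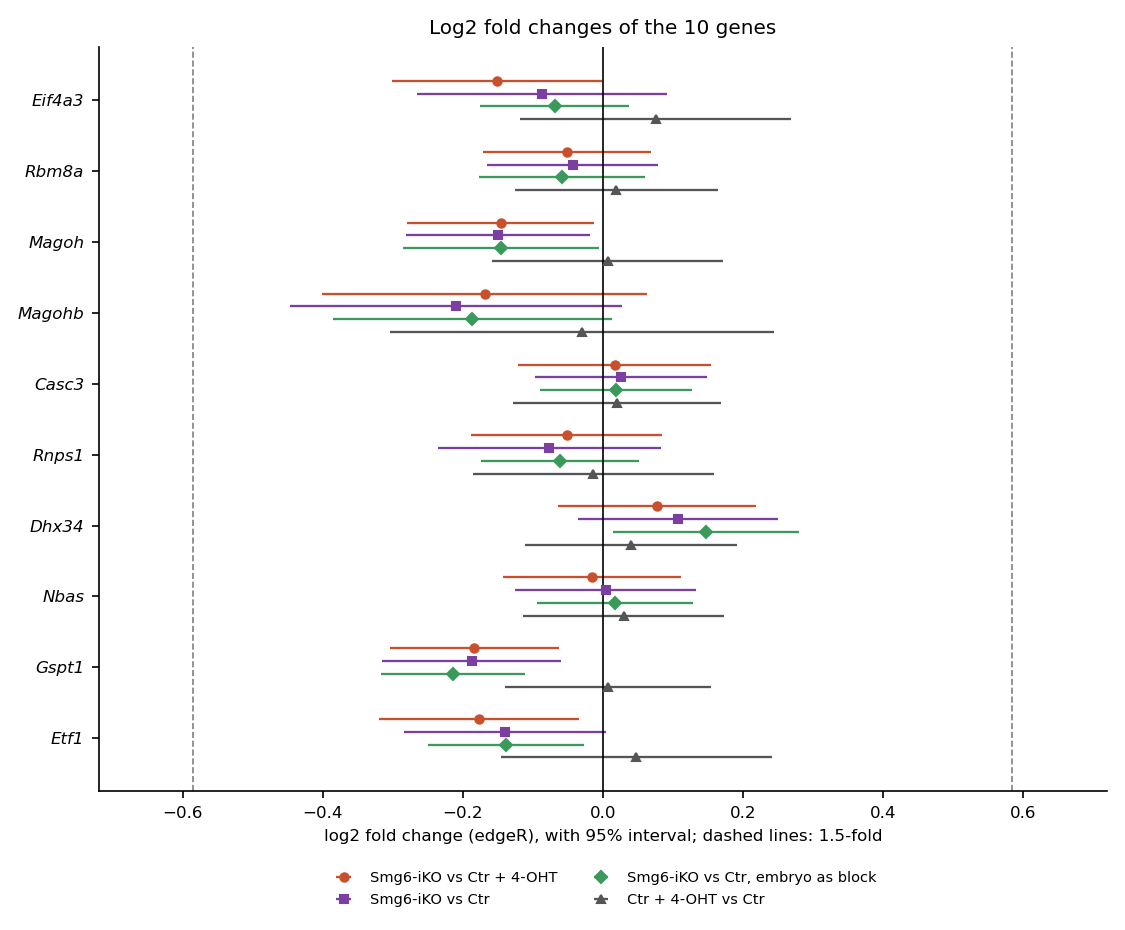
Log2 fold changes of the 10 genes (x axis, log2 scale) with their 95% intervals for the 3 comparisons and for *Smg6*-iKO against Ctr in the fit with the embryo as a block. Every interval lies between the dashed lines of a 1.5-fold change, and the intervals of *Gspt1* in all comparisons of *Smg6*-iKO lie below 0.

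Per length of exon (RPKM, which is CPM divided by the exon length in kilobases), the order of the genes in Ctr was *Etf1* (44.4 ± 4.13 RPKM, SD, n = 3), *Magoh* (42.8 ± 1.95), *Eif4a3* (33.5 ± 3.72), *Gspt1* (29.1 ± 1.74), *Rnps1* (27.7 ± 2.46), *Casc3* (16.9 ± 0.384), *Rbm8a* (13.4 ± 0.541), *Nbas* (9.91 ± 0.462), *Dhx34* (5.97 ± 0.170) and *Magohb* (5.40 ± 0.579). The ranges of *Etf1* and *Magoh* overlapped in all groups, as did those of *Gspt1* and *Rnps1*, and in Ctr also those of *Eif4a3* and *Gspt1*. All other neighbours in this order were separated in every library. The level of *Rnps1* depends on its exon length, 1920 bases in the counting annotation used here and 5131 in another annotation, GENCODE M21. The place of *Magohb* also depended on the length used. Over the 1200 of its 1720 exon bases that no other gene overlaps, it was at 7.74 ± 0.830 RPKM in Ctr, 7.57 ± 0.794 in Ctr + 4-OHT and 6.69 ± 0.505 in *Smg6*-iKO, which is above the mean of *Dhx34* in each group, with overlapping ranges in *Smg6*-iKO. The only change of place in the other groups was in *Smg6*-iKO, where *Rnps1* (26.3 ± 1.46 RPKM, SD, n = 4) came before *Gspt1* (25.5 ± 0.999), with overlapping ranges. Per length, the RNA of *Etf1* and *Magoh* was thus the most abundant of the set and that of *Dhx34* and *Magohb* the least, in an order that depends on this length.

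**Figure D2:**
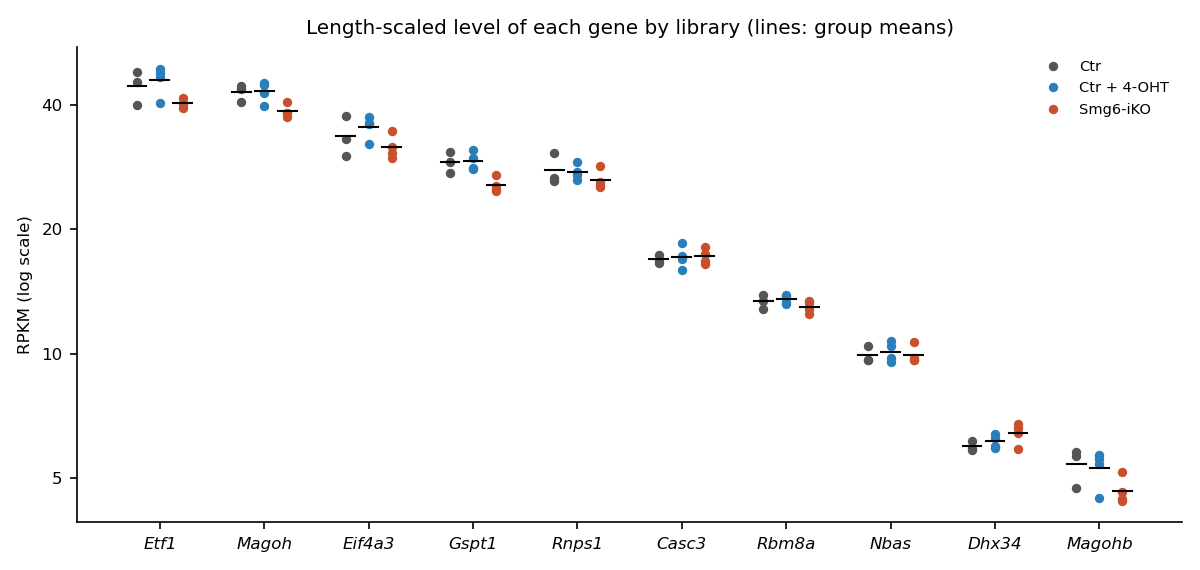
Level of each gene per library in RPKM (y axis, log scale), in the order of the Ctr means, for the 3 groups, with lines for the group means. *Etf1* and *Magoh* lie near 40 RPKM in all groups, and *Dhx34* and *Magohb*, here over its full exon length, near 5 RPKM.

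The core of the EJC is built on EIF4A3, a DEAD-box protein that clamps the RNA. *Eif4a3* (chr11:119288363-119300089, minus strand, GRCm38, 2122 bases of exon) was counted at 63.8, 70.2 and 79.5 CPM in Ctr (embryos SMH_128, SMH_132 and SMH_133), at 76.4, 68.1, 76.2 and 79 CPM in Ctr + 4-OHT (embryos SMH_125, SMH_126, SMH_129 and SMH_131) and at 64.7, 63.1, 66.8 and 73.1 CPM in *Smg6*-iKO (embryos SMH_127, SMH_128, SMH_132 and SMH_133). The 3 groups overlapped, with embryo SMH_133 highest in both of its groups. In *Smg6*-iKO the log2 fold change from Ctr + 4-OHT was -0.15 (SE 0.068, adjusted p = 0.294, edgeR) and that from Ctr -0.09 (SE 0.081, adjusted p = 0.533). The latter ran from -0.16 without the Ctr library of embryo SMH_128 to -0.0036 without that of embryo SMH_133.

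EIF4A3 has the translation initiation helicases EIF4A1 and EIF4A2 as close relatives. *Eif4a2* was at 337 ± 6.33 CPM in Ctr (SD, n = 3), 337 ± 9.67 CPM in Ctr + 4-OHT (SD, n = 4) and 384 ± 14.0 CPM in *Smg6*-iKO (SD, n = 4), and it rose against Ctr (log2 fold change 0.19, SE 0.052, adjusted p = 0.0478, edgeR) but did not pass against Ctr + 4-OHT (0.20, adjusted p = 0.0945). Its call against Ctr was lost when any 1 of the 7 libraries was left out (adjusted p from 0.0555 to 0.134), with the correction for gene length and with all 11 libraries in one fit, and the gene passed in the blocked fit (0.18, adjusted p = 0.015), but not in that fit without embryo SMH_133. *Eif4a1* was at 132.3 ± 2.84 CPM in *Smg6*-iKO, 149 ± 8.08 in Ctr + 4-OHT and 147 ± 5.80 in Ctr. It did not pass against either control (log2 fold change -0.16, adjusted p = 0.161, and -0.15, adjusted p = 0.087), but did against Ctr in the blocked fit (-0.16, adjusted p = 0.0222), a call that was lost without embryo SMH_132 and without embryo SMH_133. *Eif4a1* was also called lower against Ctr in edgeR with the correction for gene length and by DESeq2 on the groups compared, but not by DESeq2 on all libraries. Against Ctr + 4-OHT DESeq2 called *Eif4a2* in both of these fits and *Eif4a1* in that of all libraries.

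RBM8A (Y14) and MAGOH form the heterodimer that locks EIF4A3 onto the RNA, and MAGOHB is a second form of MAGOH encoded by a separate gene. *Rbm8a* (chr3:96629933-96633791, plus strand) was counted at 41.2 to 44.6 CPM in Ctr, 42.4 to 44.7 CPM in Ctr + 4-OHT and 40.1 to 43.0 CPM in *Smg6*-iKO. *Smg6*-iKO differed from Ctr + 4-OHT by a log2 fold change of -0.05 (SE 0.054, adjusted p = 0.684) and from Ctr by -0.04 (SE 0.055, adjusted p = 0.67), with a 95% interval against Ctr + 4-OHT from -11.2% to 4.86%. Its near copy *Rbm8a2* was at 0.681 ± 0.176 CPM in Ctr, 0.463 ± 0.092 CPM in Ctr + 4-OHT and 0.664 ± 0.130 CPM in *Smg6*-iKO, and passed against neither control (log2 fold change 0.53, SE 0.228, adjusted p = 0.272, and -0.02, SE 0.262, adjusted p = 0.978).

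*Magoh* (chr4:107879755-107887424, plus strand, 770 bases of exon) was counted at 31.3, 34.1 and 33.5 CPM in Ctr, at 34.7, 32.9, 34.3 and 30.6 CPM in Ctr + 4-OHT and at 29.5, 31.3, 28.7 and 29.5 CPM in *Smg6*-iKO. Every *Smg6*-iKO library lay below every Ctr library, although the Ctr and *Smg6*-iKO cultures of embryo SMH_128 differed by only -0.0933%, and 1 Ctr + 4-OHT library, embryo SMH_131, lay among the *Smg6*-iKO values. Of all genes, 11.9% had every *Smg6*-iKO library below every Ctr library. The log2 fold change was -0.15 against both controls (SE 0.060 and 0.059, adjusted p = 0.256 and 0.134, edgeR). The blocked fit, which pairs the cultures of an embryo, gave -0.15 (adjusted p = 0.13), and without embryo SMH_128 it gave -0.22, which passed (adjusted p = 0.0077), in a fit that called 5164 of 18393 genes. It did not pass in that fit without embryo SMH_132 (adjusted p = 0.503) or without embryo SMH_133 (adjusted p = 0.541).

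*Magohb* (chr6:131284388-131293244, minus strand, 1720 bases of exon) was counted at 8.14, 9.96 and 9.75 CPM in Ctr, at 9.30, 7.69, 9.59 and 9.78 CPM in Ctr + 4-OHT and at 7.66, 7.58, 8.90 and 7.97 CPM in *Smg6*-iKO. The groups overlapped, and the counts of 201 to 312 reads per library were the fewest of the set. Relative to Ctr + 4-OHT the log2 fold change was -0.17 (SE 0.105, adjusted p = 0.458), and relative to Ctr it was -0.21 (SE 0.108, adjusted p = 0.239), with the largest SE of the 10 genes. Per length, *Magohb* made up 11.2 ± 0.666% of the RNA of *Magoh* and *Magohb* in Ctr (SD, n = 3), 10.9 ± 1.25% in Ctr + 4-OHT (SD, n = 4) and 10.8 ± 1.02% in *Smg6*-iKO (SD, n = 4), which differed by less than the spread within the groups. Over the bases free of overlap, the share was 15.3 ± 0.831%, 14.98 ± 1.64% and 14.8 ± 1.32%. Over the full length, the sum of both was 3.61 ± 0.107 times the level of *Rbm8a* in Ctr, 3.57 ± 0.262 times in Ctr + 4-OHT and 3.34 ± 0.188 times in *Smg6*-iKO.

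No 50-base stretch of *Magoh* transcripts occurs in those of *Magohb*, so reads without a mismatch come from one of them. Their coding sequences in GENCODE M21, of 438 and 444 bases without the stop codon, were identical at 80.2% of aligned positions, with no identical run over 17 bases, whereas the reads were 50 bases long. The most alike 50 bases that lie within 1 exon of each gene, exon 2 in both, are shown in the sense direction with the 5 mismatches in capitals. They are chr4:107880902-107880951 on the plus strand and chr6:131289389-131289438 on the minus strand of GRCm38.
Magoh: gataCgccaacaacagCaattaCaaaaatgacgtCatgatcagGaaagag
Magohb: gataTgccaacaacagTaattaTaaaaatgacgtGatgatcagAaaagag
Another gene on the same strand, *Gm44958*, overlaps 30.2% of the exon bases of *Magohb*. Reads over more than one gene were not counted, so the counts of *Magohb* come from the rest of its exons, while its RPKM divides by their full length. *Gm44958* itself held 2 to 12 reads per library. GENCODE M21 gives the 10 genes 55 transcripts, of which 24 are protein coding, 16 in 6 genes are retained introns and 3 are marked as NMD substrates. The latter all belong to *Magohb*, and counts per gene do not separate them from its coding transcripts.

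CASC3 (MLN51, or Barentsz) joins the core of the EJC in the cytoplasm and on a part of the mRNAs. *Casc3* (chr11:98804905-98833814, plus strand) was at 71.3 to 74.5 CPM in Ctr, 68.4 to 79.8 CPM in Ctr + 4-OHT and 70.9 to 78.1 CPM in *Smg6*-iKO. In *Smg6*-iKO the log2 fold change from Ctr + 4-OHT was 0.02 (SE 0.062, adjusted p = 0.922) and that from Ctr 0.03 (SE 0.056, adjusted p = 0.812), and the interval against Ctr ran from -6.49% to 10.9%. The ratio of *Eif4a3* to *Casc3* per length was 1.98 ± 0.176 in Ctr, 2.07 ± 0.253 in Ctr + 4-OHT and 1.83 ± 0.146 in *Smg6*-iKO, with overlapping ranges.

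RNPS1 is a peripheral EJC protein that links the complex to splicing and to one branch of NMD. *Rnps1* (chr17:24414675-24425895, plus strand) was at 50.1 to 58.7 CPM in Ctr, 50.3 to 55.9 CPM in Ctr + 4-OHT and 48.4 to 54.6 CPM in *Smg6*-iKO. *Smg6*-iKO differed from Ctr + 4-OHT by a log2 fold change of -0.05 (SE 0.062, adjusted p = 0.724) and from Ctr by -0.08 (SE 0.072, adjusted p = 0.539), which ran from -0.12 without the *Smg6*-iKO library of embryo SMH_133 to -0.005 without the Ctr library of that embryo. The highest library of both Ctr and *Smg6*-iKO was that of embryo SMH_133, as for *Eif4a3*. The counting annotation gave *Rnps1* 1920 bases of exon and GENCODE M21 gives it 5131, so its RPKM depends on the annotation, while the exons of the other 9 genes were the same in both.

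Besides the core genes, 16 further EJC partners from splicing, mRNA export and EJC recycling were tested. None of the 16 was called in either comparison of *Smg6*-iKO, and their median log2 fold change was -0.01 against Ctr + 4-OHT and -0.04 against Ctr. The lowest against Ctr + 4-OHT was *Nxt1*, a cofactor of the mRNA export receptor NXF1, at -0.25 (SE 0.077, adjusted p = 0.149, edgeR). The highest was *Ncbp2*, the small subunit of the nuclear cap-binding complex, at 0.10 (SE 0.108, adjusted p = 0.695). In the blocked fit, 2 of the 16 passed against Ctr, *Srrm1*, a splicing coactivator, at -0.15 (SE 0.052, adjusted p = 0.0443), and *Ddx39b*, the export helicase UAP56, at 0.14 (SE 0.048, adjusted p = 0.047), where 21.4% of all genes passed. *Srrm1* did not pass in this fit without embryo SMH_128, *Ddx39b* did not without embryo SMH_132, and neither did without embryo SMH_133. *Srrm1* was at 99.4 ± 7.07 CPM in Ctr (SD, n = 3), 88.7 ± 11.96 in Ctr + 4-OHT (SD, n = 4) and 91.8 ± 10.3 in *Smg6*-iKO (SD, n = 4), with a log2 fold change of 0.06 in *Smg6*-iKO against Ctr + 4-OHT (adjusted p = 0.83) and of -0.17 in Ctr + 4-OHT against Ctr (adjusted p = 0.702).

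**Figure D3:**
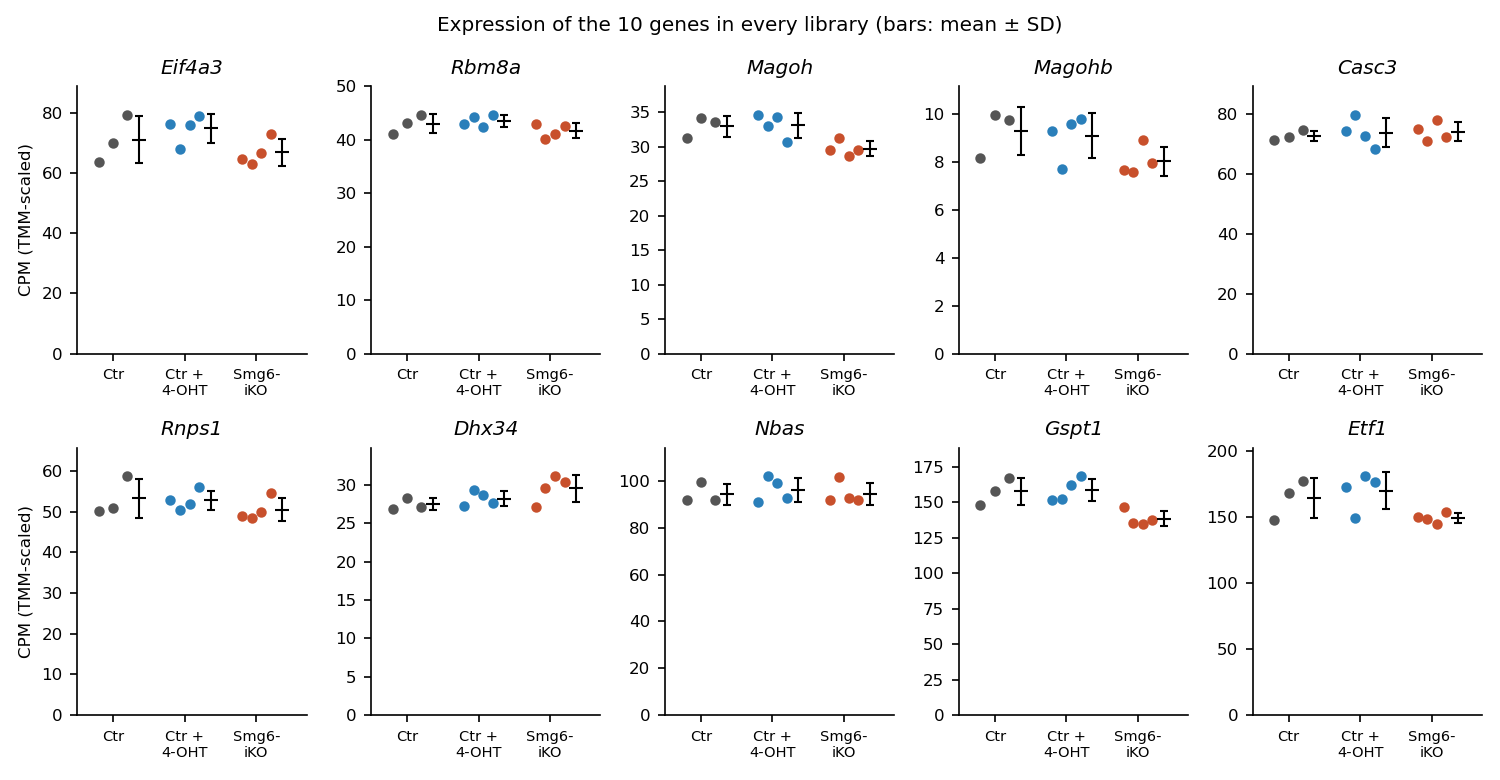
CPM of each of the 10 genes in every library (points, y axis from 0) by group, with the mean and SD of the group at its right. The *Gspt1* values of all 4 *Smg6*-iKO libraries, 134 to 146 CPM, lie below the lowest control value of 148 CPM, and the groups of the other genes overlap with at least one control.

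DHX34 is an RNA helicase that helps UPF1 to become phosphorylated. *Dhx34* (chr7:16197147-16222037, minus strand, 4596 bases of exon) was counted at 26.8, 28.3 and 27.1 CPM in Ctr, at 27.2, 29.4, 28.7 and 27.6 CPM in Ctr + 4-OHT and at 27.1, 29.6, 31.1 and 30.4 CPM in *Smg6*-iKO. The *Smg6*-iKO libraries of embryos SMH_128, SMH_132 and SMH_133 were above every control library of both groups, whereas that of embryo SMH_127 was within them. Relative to Ctr + 4-OHT the log2 fold change was 0.08 (SE 0.064, adjusted p = 0.585), and relative to Ctr it was 0.11 (SE 0.065, adjusted p = 0.318). Within the embryos that gave both cultures, *Smg6*-iKO was higher by 10.3%, 9.89% and 12%, and the blocked fit gave 0.15 (SE 0.063, 95% interval 0.01 to 0.28), which did not pass after adjustment (adjusted p = 0.107).

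NBAS acts in NMD at the endoplasmic reticulum and is a subunit of the NRZ complex, which tethers Golgi-derived vesicles there. *Nbas* (chr12:13269133-13583811, plus strand) had the longest exon sequence of the set, 9515 bases, and was at 91.8 to 99.4 CPM in Ctr, 91.0 to 102 CPM in Ctr + 4-OHT and 91.8 to 102 CPM in *Smg6*-iKO. In *Smg6*-iKO the log2 fold change from Ctr + 4-OHT was -0.02 (SE 0.057, adjusted p = 0.922) and that from Ctr 0.0038 (SE 0.059, adjusted p = 0.978). Within embryos, it differed in *Smg6*-iKO by 10.7%, -6.5% and 0.158% in embryos SMH_128, SMH_132 and SMH_133, with no common direction.

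Partners of NBAS and further accessory factors were also tested. None of 6 genes of the NRZ complex and its SNAREs was called in either comparison. The lowest and highest against Ctr + 4-OHT were *Sec22b*, a SNARE of the endoplasmic reticulum, at -0.10 (SE 0.072, adjusted p = 0.527), and *Zw10*, a subunit of the NRZ complex, at 0.10 (SE 0.052, adjusted p = 0.379). In the blocked fit, *Sec22b* and the SNARE *Use1* were lower against Ctr and passed (-0.15, adjusted p = 0.0381, and -0.16, adjusted p = 0.0251), but neither did without embryo SMH_133, nor *Sec22b* without embryo SMH_132. *Use1* was at 89.1 ± 3.58 CPM in Ctr (SD, n = 3), 76.8 ± 6.19 in Ctr + 4-OHT (SD, n = 4) and 77.9 ± 6.58 in *Smg6*-iKO (SD, n = 4), with a log2 fold change of 0.03 in *Smg6*-iKO against Ctr + 4-OHT (adjusted p = 0.882) and of -0.21 in Ctr + 4-OHT against Ctr (adjusted p = 0.471). None of 6 other accessory decay factors was called, from *Ruvbl1*, an AAA ATPase, at -0.19 (SE 0.079, adjusted p = 0.259) to the RNA helicase *Mov10* at 0.09 (SE 0.107, adjusted p = 0.71).

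Of the 10 genes, the release factor gene *Gspt1* had the lowest p against both controls. GSPT1 (eRF3a) is the GTPase that carries eRF1 to the stop codon. *Gspt1* (chr16:11219292-11254325, minus strand, 5428 bases of exon) was counted at 148, 158 and 167 CPM in Ctr, at 151, 152, 162 and 168 CPM in Ctr + 4-OHT and at 146, 136, 134 and 138 CPM in *Smg6*-iKO. Every *Smg6*-iKO library was below every library of both control groups, with embryo SMH_127 the closest to them. *Gspt1* was the only one of the 10 genes with this pattern against Ctr + 4-OHT, where it was found in 5.99% of all genes. Between the control groups, none of the 10 genes had every Ctr + 4-OHT library below every Ctr library, beside 4.91% of all genes.

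*Gspt1* differed between *Smg6*-iKO and Ctr + 4-OHT by a log2 fold change of -0.18 (SE 0.054, 95% interval -0.30 to -0.06) and from Ctr by -0.19 (SE 0.058, 95% interval -0.31 to -0.06), a difference of -12% and -12.2%. Neither passed after adjustment (adjusted p = 0.133 and 0.0667, edgeR). In the blocked fit, which compares the cultures of the same embryo and in which the unpaired embryo SMH_127 does not contribute to the difference, *Gspt1* was lower in *Smg6*-iKO than in Ctr, with a log2 fold change of -0.21 (SE 0.049, adjusted p = 0.00472), that is -13.8% with a 95% interval from -19.7% to -7.39%. It was the only 1 of the 10 genes that passed this test, where 21.4% of all genes passed. The call was lost without embryo SMH_133, where the same fit gave -0.17 (adjusted p = 0.162). It was kept without embryo SMH_132 (-0.21, adjusted p = 0.00974) and without embryo SMH_128 (-0.26, adjusted p = 3.16e-07). These fits rest on fewer embryo pairs, and their calls over all genes differed widely. They called 1742 of 18103 genes without embryo SMH_133, 2644 of 18106 without SMH_132 and 5164 of 18393 without SMH_128.

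Within embryos, *Gspt1* differed in *Smg6*-iKO by -8.62%, -14.8% and -17.7% in embryos SMH_128, SMH_132 and SMH_133. Of the 10 genes, 6 were lower in all 3 embryos, *Eif4a3*, *Rbm8a*, *Magoh*, *Magohb*, *Rnps1* and *Gspt1*, and *Dhx34* was higher in all 3. Of all genes, 25.9% were lower in all 3 embryos and 25.8% were higher in all 3. DESeq2's Wald test called *Gspt1* in both comparisons (-0.20, adjusted p = 0.0317, against Ctr + 4-OHT, and -0.19, adjusted p = 0.0225, against Ctr) and no other of the 10 genes, where it called 6.06% and 16.9% of the genes it gave an adjusted p. Several progenitor markers were also lower in the comparison with Ctr, where 6 of 10 markers fell (adjusted p under 0.05, edgeR), beside 9.25% of all genes called. Among them were *Hes5* at -1.28, *Sox2* at -0.47 and *Pax6* at -0.45 on the log2 scale. Against Ctr + 4-OHT none of the 10 markers was called, and 8 of them had a negative log2 fold change, with a median over the 10 of -0.14. In Ctr + 4-OHT against Ctr, where *Gspt1* differed by 0.0074, none of the markers was called either, and 9 of 10 had a negative log2 fold change, with a median of -0.22 and with *Hes5* at -0.59 (adjusted p = 0.401). The 7 neuronal markers summed to 2090 to 2410 CPM in *Smg6*-iKO, 1640 to 2670 CPM in Ctr + 4-OHT and 1790 to 1970 CPM in Ctr, and the 5 mesenchymal markers to 90.4 to 547, 107 to 344 and 129 to 189 CPM. The 4 astrocyte markers summed to 427 to 515, 454 to 505 and 436 to 509 CPM, and 1 of them, *Gfap*, rose against Ctr (log2 fold change 1.33, adjusted p = 0.0288) and did not pass against Ctr + 4-OHT (0.62, adjusted p = 0.687). The 5 oligodendrocyte lineage markers summed to 580 to 695, 657 to 859 and 575 to 646 CPM, so every Ctr + 4-OHT library lay above every Ctr library. None of these 5 was called in any comparison. Their median log2 fold change was -0.15 in *Smg6*-iKO against Ctr + 4-OHT, 0.15 against Ctr and 0.27 between the controls. The part of all these markers in the result was not tested, and in bulk RNA fewer cells of a type and less RNA per cell cannot be told apart.

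**Figure D4:**
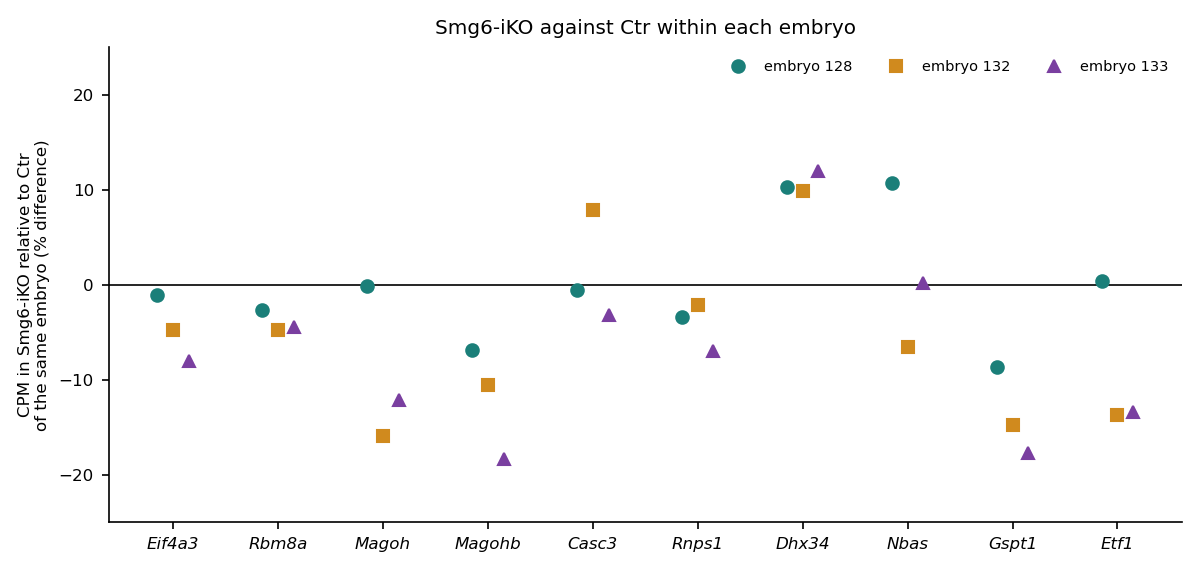
Difference in CPM between the *Smg6*-iKO and Ctr cultures of the same embryo (y axis, percent of Ctr) for each gene and each of embryos SMH_128, SMH_132 and SMH_133. *Gspt1* lies at -8.62%, -14.8% and -17.7%, *Dhx34* at 9.89% to 12%, and *Nbas* and *Etf1* on both sides of 0.

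*Gspt2*, an X-linked gene for a second eRF3, is the closest relative of *Gspt1*. It was at 19.6 ± 0.926 CPM in Ctr (SD, n = 3), 21.2 ± 2.03 CPM in Ctr + 4-OHT (SD, n = 4) and 22.2 ± 1.38 CPM in *Smg6*-iKO (SD, n = 4). *Smg6*-iKO differed from Ctr + 4-OHT by a log2 fold change of 0.07 (SE 0.083, adjusted p = 0.718) and from Ctr by 0.18 (SE 0.073, adjusted p = 0.153), and in the blocked fit from Ctr by 0.21 (SE 0.071, adjusted p = 0.0482), which passed. That call was lost without embryo SMH_128 and without embryo SMH_133. Per length, *Gspt2* made up 15.2 ± 1.19% of the RNA of both genes in Ctr, with a range of 13.8% to 16.0%, 16.1 ± 1.44% in Ctr + 4-OHT, with a range of 14.6% to 17.7%, and 18.7 ± 1.40% in *Smg6*-iKO, with a range of 16.9% to 20.3%. The *Smg6*-iKO libraries were above all Ctr libraries in this share and overlapped with Ctr + 4-OHT.

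The coding sequences of *Gspt1* and *Gspt2*, of 1908 and 1896 bases, were identical at 80.7% of aligned positions, with a longest identical run of 39 bases, so no 50-base coding read fits both without a mismatch. The most alike 50 bases within 1 exon of each, exon 12 of *Gspt1* (chr16:11224494-11224543, minus strand) and exon 1 of *Gspt2* (chrX:94637720-94637769, plus strand), differ at 1 base, shown in capitals in the sense direction.
Gspt1: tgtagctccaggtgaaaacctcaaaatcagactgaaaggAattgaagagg
Gspt2: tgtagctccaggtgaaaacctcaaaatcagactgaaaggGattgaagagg
The median number of mismatches over all such 50-base windows was 6, beside 9 for *Magoh* and *Magohb*. Of all distinct 50-base stretches of *Gspt1* transcripts, 0.512% also occurred in transcripts of other genes on the same strand, beside 0% for *Magoh*, *Casc3*, *Dhx34*, *Nbas* and *Etf1*, 6.03% for *Rbm8a*, 10.8% for *Rnps1*, 16.5% for *Eif4a3* and 26.8% for *Magohb*. For *Rnps1* the share is over GENCODE M21 transcripts with 5131 bases of exon, of which the counting annotation held 1920. Its share over the counted exons alone was not determined. The copies behind the larger shares were counted at few reads per library, with 10 to 27 for *Rbm8a2* and 2 to 9 for *Gm9825*, which resembles *Rnps1*. The *Eif4a3*-like genes *Gm5576*, *Gm5580* and *Gm8994* held 0 to 2 reads. Reads that fitted more than one position were not counted for any of them.

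ETF1 (eRF1) recognises the stop codon and releases the finished protein. *Etf1* (chr18:34902785-34932007, minus strand, 3709 bases of exon) was counted at 148, 168 and 178 CPM in Ctr, at 173, 150, 181 and 177 CPM in Ctr + 4-OHT and at 150, 148, 145 and 154 CPM in *Smg6*-iKO. The *Smg6*-iKO libraries lay close together, and 1 library of each control group, embryos SMH_128 and SMH_126, lay among them. Relative to Ctr + 4-OHT the log2 fold change was -0.18 (SE 0.064, adjusted p = 0.201), and relative to Ctr it was -0.14 (SE 0.066, adjusted p = 0.198), with -0.21 without the Ctr library of embryo SMH_128 and -0.08 without that of embryo SMH_133. The blocked fit gave -0.14 (SE 0.053, adjusted p = 0.0703), and the cultures of embryo SMH_128 differed by 0.388% while *Smg6*-iKO was at -13.7% and -13.4% from Ctr in embryos SMH_132 and SMH_133. Without embryo SMH_128, *Etf1* passed in the blocked fit (-0.21, adjusted p = 6.04e-05), where 5164 of 18393 genes were called. It also passed with the block and the correction for gene length together (adjusted p = 0.0228), where 4076 of 17974 genes were called, but not in the blocked fit without embryo SMH_132 (adjusted p = 0.268) or without embryo SMH_133 (adjusted p = 0.523). The ratio of *Gspt1* to *Etf1* per length was 0.656 ± 0.025 in Ctr, 0.639 ± 0.045 in Ctr + 4-OHT and 0.633 ± 0.024 in *Smg6*-iKO, with overlapping ranges.

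Of 11 further genes of termination and ribosome recycling, none was called in either comparison, with a median log2 fold change of -0.01 against Ctr + 4-OHT and 0.01 against Ctr. The lowest against Ctr + 4-OHT was *Abce1*, which splits the ribosome after release, at -0.21 (SE 0.059, adjusted p = 0.121, edgeR), and the highest was *Gspt2*. In the 4 lists of partners together, 0 of 39 genes were called against Ctr + 4-OHT, with 5 at an unadjusted p under 0.05 beside 16.7% of all genes, and 0 of 39 against Ctr, with 5 unadjusted beside 26.9%. In the blocked fit, 5 of the 39 passed against Ctr, 2 higher and 3 lower, beside 21.4% of all genes. These were *Ddx39b*, *Gspt2*, *Srrm1*, *Sec22b* and *Use1*, while without embryo SMH_133 the same fit called 0. With the block and the correction for gene length together, 0 of the 39 were higher and 5 lower, *Srrm1*, *Alyref*, *Pabpc1*, *Sec22b* and *Use1*, so that *Ddx39b* and *Gspt2* no longer passed. DESeq2's Wald test called 1 of the 39 against Ctr + 4-OHT, *Abce1*, and 0 against Ctr, and the DESeq2 fit of all libraries called 3 against Ctr + 4-OHT, *Abce1*, *Hbs1l* and *Nxt1*, all lower.

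The SMG and UPF factors recognise the stalled termination complex and recruit the decay enzymes. Of 10 tested, 3 rose and 0 fell against Ctr + 4-OHT, beside 1.17% of all genes called, which were *Smg9*, a cofactor of the SMG1 kinase (log2 fold change 0.36, SE 0.068, adjusted p = 0.0363), *Smg5*, an adaptor of the phosphatase PP2A (0.32, SE 0.052, adjusted p = 0.0202), and *Smg1*, the kinase of UPF1 (0.30, SE 0.055, adjusted p = 0.0358). The lowest was *Smg8*, another cofactor of SMG1, at -0.17 (SE 0.055, adjusted p = 0.159). The median log2 fold change of the list was 0.21 against Ctr + 4-OHT and 0.11 against Ctr, where *Smg5* (0.43, adjusted p = 0.00349) and *Smg9* (0.28, adjusted p = 0.042) passed, beside 9.25% of all genes. Against Ctr + 4-OHT between 0 and 2 of the 10 were called when any 1 library was left out, against Ctr between 1 and 3, with *Smg5* in each. With the gene length correction only 1, *Smg5*, was called against each control, and in the blocked fit 5 rose and 1, *Smg6*, fell, beside 21.4% of all genes called. Without embryo SMH_132 that fit called 4 higher and 0 lower, and without embryo SMH_133 it called 2 higher, *Smg5* and *Smg9*, and 0 lower, so the call of *Smg6* was lost in both. The difference between this list and the 10 genes was not tested.

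**Figure D5:**
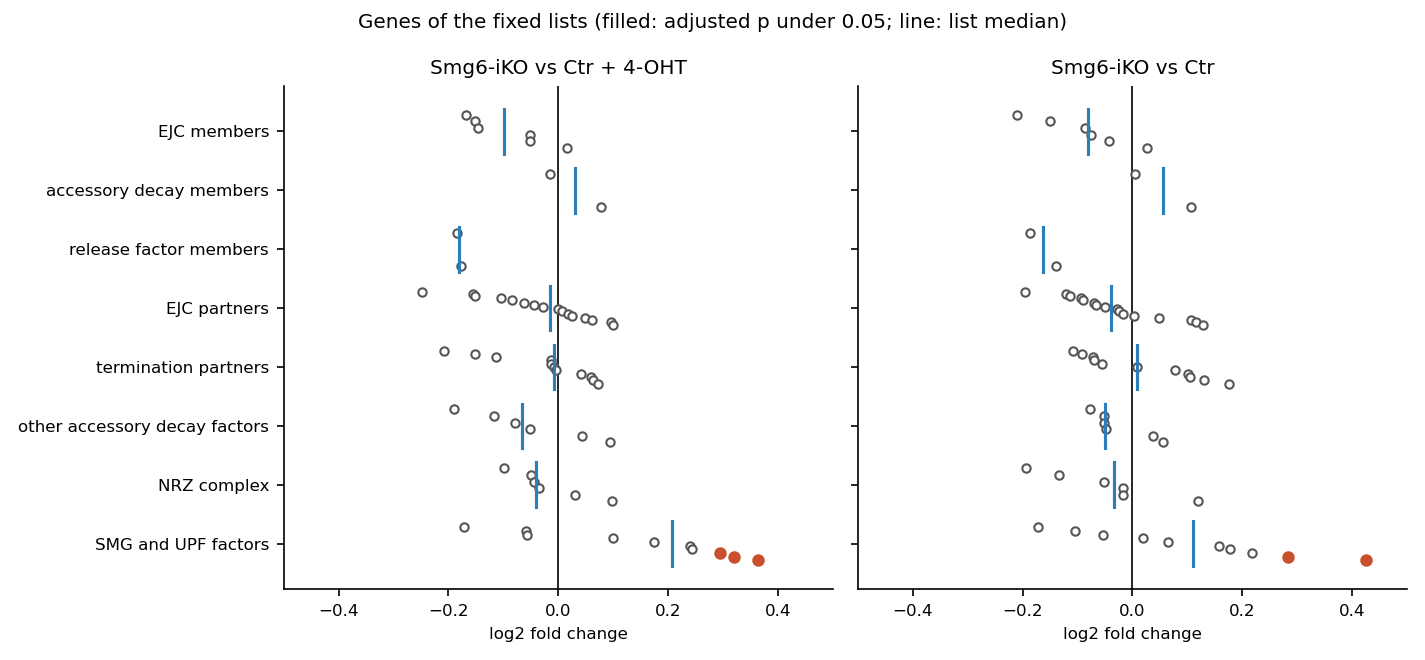
Log2 fold changes of *Smg6*-iKO (x axis) for the 10 genes in their 3 roles and for the lists of partners, against Ctr + 4-OHT and against Ctr, with one point per gene, filled where the adjusted p was under 0.05, and a line at the median. Filled points occur only among the SMG and UPF factors, 3 on the left and 2 on the right, in these fits without the block.

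In Ctr + 4-OHT against Ctr, which compares the control groups with each other, none of the 10 genes was called. The log2 fold changes ran from -0.03 for *Magohb* to 0.08 for *Eif4a3*, with SEs of 0.064 to 0.123 and adjusted p from 0.836 to 0.986 (edgeR). None of the 10 had an unadjusted p under 0.05, and the intervals reached from -19.0% to 20.5%. For *Gspt1* the difference was 0.01 (SE 0.065, 95% interval from -9.2% to 11.3%). The 3 comparisons share their groups, so they are not independent.

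The gene whose log2 CPM over the 11 libraries was most like that of *Gspt1*, among 18122 others, was *Prps1*, an enzyme of nucleotide synthesis (Pearson's r = 0.943). For *Etf1* it was *Topbp1*, a DNA replication and checkpoint protein (0.961), for *Magoh* it was *Swi5*, a recombination factor (0.956), and for *Magohb* it was *Rfc5*, a subunit of the clamp loader of DNA replication (0.923). For *Eif4a3* it was *Eif4g1*, the scaffold of the translation initiation complex (0.975), for *Nbas* the centrosomal gene *Alms1* (0.945), for *Dhx34* *Setd4* (0.898), for *Casc3* *4930517E14Rik* (0.894) and for *Rbm8a* *Smpd4* (0.868). These are descriptions over 11 libraries that share groups and embryos, and each is the highest of many values.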

How the data were processed

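The authors deposited raw counts per gene for each of 11 libraries. Per the labels, the paper's methods and the file headers, 50-base single reads of stranded total RNA were mapped to GRCm38 with STAR 2.5.4b, and featureCounts 1.5.0 counted reads of one position and one gene of Ensembl 92 with the reverse-stranded setting. From these counts, genes were filtered with filterByExpr, scaled with TMM and tested with edgeR 4.0.16 in R 4.3.3, each comparison on its own groups. Intervals are the log2 fold change ± the 95% t quantile times its SE. RPKM used the exon lengths in the tables. Of the identifiers, 53620 of 53801 had a symbol. Cultures of the same embryo deviated together from their group means (correlations 0.328 to 0.425 for 3 pairs, -0.265 to 0.095 for 9 others), and the shared animal is given by the embryo numbers in the labels. No 2 libraries of a group were duplicates (chi-square per gene 11.0 to 43.0). p-values of the fits without the block measure the spread between cultures, and those against Ctr treat the cultures of the same embryo as independent. In the blocked fit they measure the spread of the differences within embryos. Counts carry counting error, and 201 reads were the fewest for any of the 10 genes.

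The genes, lists and tests were chosen with earlier results of these data known. The text names the 10 genes, *Smg6*, their near copies by symbol, at most 5 called genes of each list with its lowest and highest change, and the gene most correlated with each of the 10, of which that for *Rnps1* is not reported here. Genes called only with the block or by DESeq2 were named after their values were seen. Alternatives were other scalings and filters, one fit of all libraries, a gene length correction (loess, span 0.3), limma-voom 3.58.1, DESeq2 1.42.0, the embryo block and leaving out each library. The block without each paired embryo and the *Magohb* length free of overlap were added after seeing the data. Scripts were tested on simulated data. Transcripts and alignments came from GENCODE M21 with Biopython 1.88, and figures from matplotlib 3.10.9.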

Additional observations from a re-analysis of the deposited data

Results flagged for a closer look

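In the *Smg6*-iKO group, *Nbas* had its highest value in embryo SMH_128, 102 CPM, far from the other 3 libraries at 91.8, 92.9 and 91.9 CPM, with a gap of 0.887 of the whole range, above Dixon's 95% critical value for 4 samples. Among the 20 groups of 4 libraries examined, this was 1 that stood out, and chance gives about 1 in 20. Without this library, the log2 fold change of *Nbas* was -0.03 against Ctr (adjusted p = 0.725).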

How the results depend on the processing

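The number of the 10 genes called against Ctr + 4-OHT was 0 under every scaling, filter, limma-voom and length-correction alternative, and 1, *Gspt1*, with DESeq2 on the groups compared and 1 with DESeq2 on all libraries (adjusted p = 0.0317 and 0.0165). Against Ctr it was 1, *Gspt1*, with the length correction (adjusted p = 0.0296), with either DESeq2 fit (0.0225 and 0.0318) and with the embryo block (0.00472). Of all genes, 1955 of 17974 were called with the length correction and 3854 of 17974 with the block. The number among the 10 genes was 2, *Gspt1* and *Etf1*, with the block and length correction together. With the block and each paired embryo left out it ran from 0 (without embryo SMH_133, where 1742 of 18103 genes were called) to 3 (without embryo SMH_128, where 5164 of 18393 were), with 1, *Gspt1*, without embryo SMH_132 (2644 of 18106), and leaving out a library without the block gave 0 to 0 in each comparison. Without the length correction and with all paired embryos kept, the block changed no other call among the 10 genes. Of the alternative values of their log2 fold changes, 496 kept direction and call, 12 passed the threshold only under the alternative, and 32 changed sign. The causes were not tested.

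Sign changes were in values near 0. *Casc3* was -0.0395 with the length correction in *Smg6*-iKO against Ctr + 4-OHT, and compared with Ctr it was -0.022 with the correction and -0.0253 when the block was added. *Nbas* was 0.0015 with upper-quartile scaling compared with Ctr + 4-OHT, and compared with Ctr it was -0.039 with the length correction, -0.004 and -0.0033 with DESeq2 on the groups and on all libraries, and -0.0142 with the block and length correction. *Rnps1* was 0.0002 with the length correction between the controls. With 1 library left out, *Casc3* ran from -0.0238 to 0.0557 compared with Ctr + 4-OHT, and compared with Ctr from -0.0003 to 0.046 (-0.0267 in the block without embryo SMH_132). *Nbas* ran from -0.0556 to 0.0133 compared with Ctr + 4-OHT, and compared with Ctr from -0.0323 to 0.0323 (-0.0492 in the block without embryo SMH_128). Between the controls the ranges were -0.0116 to 0.053 for *Rbm8a*, -0.0305 to 0.0493 for *Magoh*, -0.1169 to 0.0413 for *Magohb*, -0.0191 to 0.062 for *Casc3*, -0.056 to 0.0677 for *Rnps1*, -0.0354 to 0.0576 for *Gspt1* and -0.0248 to 0.1128 for *Etf1*.

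Over all genes, 206 were called against Ctr + 4-OHT, 418 with no filter, 484 with all libraries in one fit, 873 and 1150 with DESeq2 on the groups and on all libraries, and 66 (without *Smg6*-iKO of embryo SMH_132) to 174 with 1 library left out. Against Ctr 1663 were called, 2714 with no filter, 796 with all libraries in one fit and 1955 with the length correction. DESeq2 called 2421 there on the groups and 1616 on all libraries. With the block 3854 were called, and 4076 with the block and length correction. With 1 library left out the number ran from 570 (without *Smg6*-iKO of embryo SMH_133) to 2524 (without *Smg6*-iKO of embryo SMH_128). In Ctr + 4-OHT against Ctr 39 were called, 198 with no filter, 60 with all libraries in one fit, 169 and 239 with DESeq2, and 5 to 54 with 1 library left out. The RPKM of *Magohb* in Ctr was 5.40 over all its exon bases and 7.74 over those free of overlap, a length chosen after seeing the data. Between 3 and 4 cultures a group and, for *Magohb*, few reads limit the precision.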
